A study of Rattus norvegicus and synthetic construct with 4 samples.

Results

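Of the 3378 human islet CAGE elements with counts in a reporter assay, 373 (11%) had a close neighbour that they did not overlap. An element was taken where it overlapped no other of the 4323 elements in the table that pairs barcodes with elements, but where at least 1 of those started within 1000 bp of its own start. Among the 3378 elements of the filtered count table, the choice used positions only and no count value. By the gap between the element and its nearest neighbour, 239 members lay under 200 bp away, 75 lay 200 to 400 bp away and 59 lay 400 to 800 bp away. For comparison, 603 counted elements overlapped another element, and 2402 had no other element starting within 1000 bp.

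CAGE (cap analysis of gene expression) sequences the capped 5′ ends of RNA, so a CAGE element marks a place where transcription starts. Promoters and enhancers are commonly transcribed from more than a single start, in opposite directions from neighbouring starts or from alternative starts along the same strand, and the regions around these starts can hold separate stretches of regulatory sequence. In STARR-seq (self-transcribing active regulatory region sequencing) a candidate element sits within the transcribed part of a reporter plasmid, so that the amount of reporter RNA made per copy of plasmid reports how strongly the element raises transcription outside its own chromosome. Neighbouring elements of a genomic region are therefore read separately, each on its own plasmids.

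The study built a library of 7188 designed elements of 198 bp, made as oligonucleotides of 230 bp with anchors of 16 bp, and tagged the plasmids with random barcodes of 16 bases. Per the labels, 10 ug of this library was electroporated into 25000000 cells of the INS1 832/13 line, a rat insulinoma (insulin-producing beta cell tumour) line, for each of 3 biological replicates, and the cells were harvested at 24 h. The data comprise 4 libraries: 1 of the plasmid input DNA and 3 of RNA from the electroporated cells, with no other treatment, genotype or cell line. The elements are human sequence and the cells are rat, and elements were read on plasmids. The element positions are hg19, per the submitters' processing notes. Strand, gene annotation and the human genome sequence were not used here, so whether 2 neighbours belong to the same promoter region was not checked.

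Total counts were 1079728 for plasmid DNA and 211117, 197554 and 218571 for RNA replicates 1, 2 and 3. All barcodes of an element were added up. An RNA/DNA ratio below is an element's RNA count over its DNA count, each divided by its library's size after TMM scaling (trimmed mean of M-values, which sets the centre of most elements' ratios near 1). A ratio of 1, or 0 on the log2 scale, is called the centre. An element is called when its RNA differed from the DNA in edgeR's quasi-likelihood test over all 3378 elements, with the Benjamini-Hochberg adjusted p below 0.05. The single DNA library has no replicate, so the spread comes from the RNA libraries, and an exact permutation of 1 library against 3 could not give a p below 0.25. The counts come from PCR-amplified barcodes, and whether molecular identifiers were used is not given here.

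The raw values behind a pair of neighbours are shown for 2 members at chr4:39459949-39460146 and chr4:39460432-39460629, separated by 285 bp. This pair is shown because both were well covered in the DNA and their RNA counts lay far apart. The element at the lower coordinate was represented by 10 barcodes with 346 DNA counts, and gave 8, 7 and 8 RNA counts in replicates 1, 2 and 3. The element at the higher coordinate was represented by 14 barcodes with 324 DNA counts, and gave 98, 94 and 83 RNA counts. The 3 barcodes of each with the most DNA counts are printed as the pairing table gives them, in lower case, with no base marked.

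lower element, barcode 1: tatattctccctagat
lower element, barcode 2: ttgccattttaagatc
lower element, barcode 3: gtccaatttaccattc
higher element, barcode 1: acagaaactttgtcaa
higher element, barcode 2: gtttacttatcattgt
higher element, barcode 3: cccaataccgcgctaa

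The 3 barcodes of the lower element had 73, 70 and 37 DNA counts. Their RNA counts in replicates 1, 2 and 3 were 2, 1 and 4 for the first, 1, 3 and 0 for the second, and 1, 0 and 0 for the third. Low counts were thus seen on every one of these plasmids. Those of the higher element had 43, 33 and 29 DNA counts, and RNA counts of 1, 0 and 0 for the first, 27, 38 and 4 for the second, and 1, 12 and 1 for the third. Barcodes of the higher element thus differed widely among themselves. A count of 5 or more in at least 1 RNA library was reached by 0 of 10 barcodes of the lower element and by 7 of 14 of the higher.

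The gaps were mostly short. Their median was 125 bp, with a range from 0 to 777 bp, 158 of the 373 members lay under 100 bp from their neighbour and 90 under 50 bp. Certain spacings recurred, with 16 members at a gap of 2 bp, 7 at 102 bp and 3 at 0 bp. In 24 members the starts were a multiple of 100 bp apart. At the edges of the choice, the starts of a member and its nearest neighbour were 198 to 975 bp apart, the nearest neighbour of an element outside it started 1042 bp away, and the largest offset between an overlapping element and its nearest neighbour was 197 bp. The members lay on 22 chromosomes, 43 of them on chromosome 1. A single neighbour within 1000 bp was present for 335 members and 2 or more for 38, and the nearest neighbour had counts of its own for 289 members but none in the count table for 84.

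**Figure D1:**
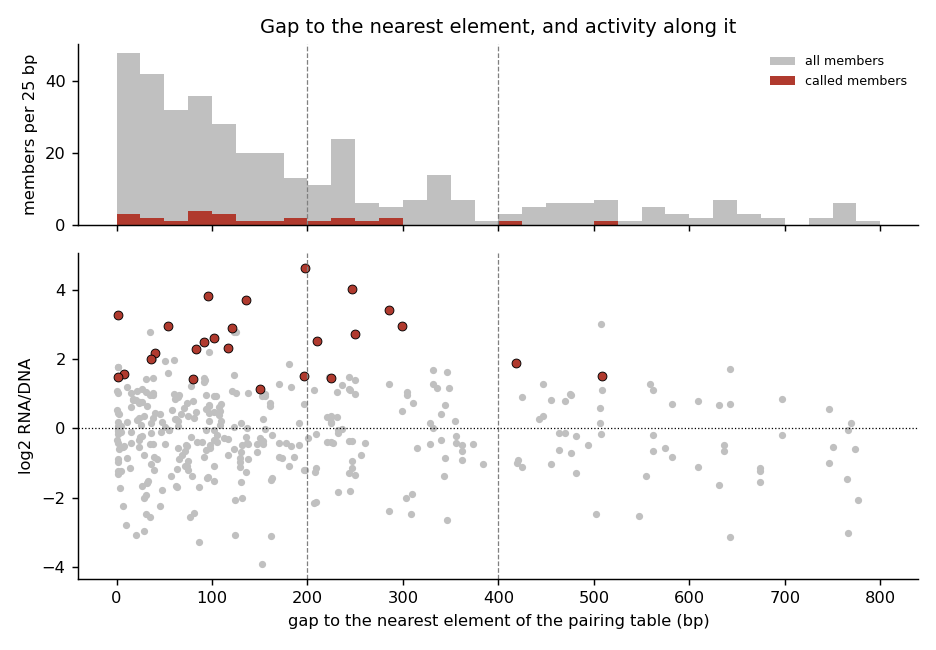
The upper panel counts members by the gap in bp to the nearest element of the pairing table, in bins of 25 bp, and the lower panel plots each member's log2 RNA/DNA ratio against that gap. The 25 called members are in red and dashed lines mark the class limits of 200 and 400 bp. Most members lie at short gaps (median 125 bp), and called members have a median gap of 121 bp.

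In depth the members resembled the whole table. They were represented by 3853 barcodes, with a median of 6 per member (range 2 to 106) against 6 over all elements, and had a median of 196 DNA counts against 197. They held 10.9% of the DNA counts and 11.8% ± 0.040 (SD, n = 3) of the RNA counts. In a given RNA library 65.0% ± 2.46 (SD, n = 3) of their barcodes were detected, against 64.9% ± 2.80 over all barcodes. A count of 5 or more was reached by 22.9% ± 0.590 of them, so most detected barcodes rested on a few reads.

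As a group the members lay at the centre. Their median log2 RNA/DNA ratio was -0.085, against -0.031 over all 3378 elements, -0.39 over the overlapping elements and 0.067 over the isolated ones. Among the members, 80% lay between -1.62 and 1.48 on the log2 scale and the extremes were -3.92 and 4.64. Ratios lay above the centre in 3 of 3 RNA libraries for 93 members (24.9%, beside 25.8% of all elements). They lay below it in 3 of 3 for 124 (33.2% beside 29.4%). Within each RNA library the members' median minus that of all elements was -0.12, -0.094 and -0.032, a mean of -0.082 ± 0.045 (SD, n = 3). The difference from all elements in the fitted ratios, -0.055, changed sign with the processing, being 0.012 without RNA replicate 1 and 0.025 without RNA replicate 2. By the same per-library measure the overlapping elements lay at -0.47 ± 0.072 and the isolated ones at 0.13 ± 0.024 (SD, n = 3). In each library the members' median lay between the medians of the overlapping and the isolated elements. Split by barcodes, the fitted medians kept this order only with 2 to 4 barcodes. Members lay at -0.42 and overlapping elements at -0.38 with 5 to 9 barcodes. Members and isolated elements lay at 0.12 and 0.072 with 10 to 19, and at 0.17 and 0.052 with 20 or more. The mean of the per-library medians broke the order only with 20 or more barcodes (0.27 for members, 0.050 for isolated elements). The elements themselves overlapped widely, with log2 quartiles of -0.85 and 0.85 for members. The quartiles were -1.07 and 0.36 for overlapping elements and -0.73 and 1.02 for isolated ones. The SD is over RNA libraries of the same elements and does not measure the spread over elements. No test was made over elements, which are not replicates.

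The widest gap class had the lowest median, and the other classes lay near the whole table. The median log2 ratio was -0.037 for gaps under 200 bp, -0.036 for gaps of 200 to 400 bp and -0.19 for gaps of 400 to 800 bp. Per library, the median minus that of all elements was -0.035 ± 0.028, 0.031 ± 0.072 and -0.30 ± 0.085 (SD, n = 3) in the same order. The widest class was lower than the other classes in all 3 RNA libraries, at -0.33, -0.20 and -0.36. It stayed below all elements under every alternative that gave it a value, from -0.038 with the median over barcodes to -0.46 with at least 5 barcodes and 50 DNA counts. This class had 59 members with a median of 6 barcodes, against 6 and 7 in the other classes, and the difference was not tested.

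**Figure D2:**
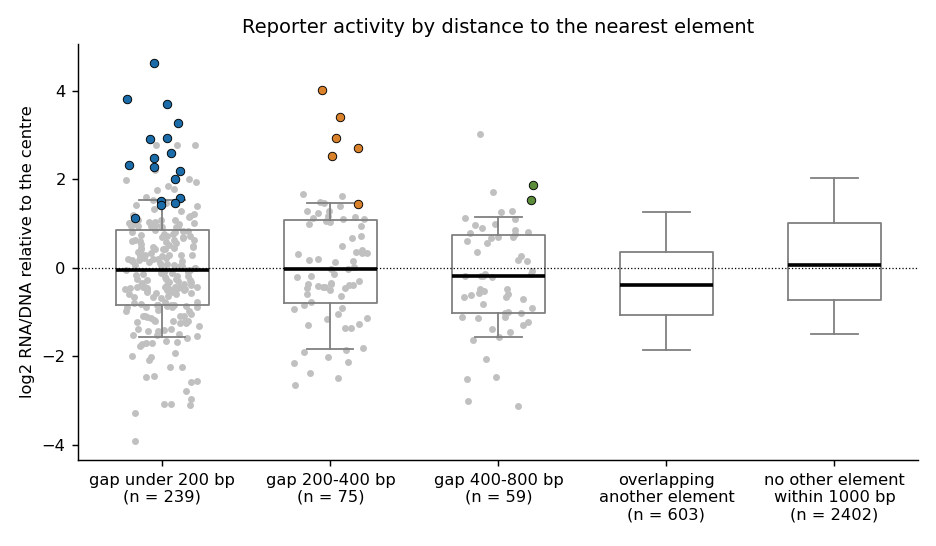
Log2 RNA/DNA ratio relative to the centre for members by gap class (points, called members coloured and outlined) and for elements that overlap another or have none within 1000 bp (boxes only). Boxes span the quartiles with the median as a thick line, and whiskers span 80% of elements. The members' medians lie between -0.19 and -0.036, above the -0.39 of overlapping elements and below the 0.067 of isolated ones.

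RNA above the centre was called for 25 of the 373 members (6.70%), where 8.88% of all 3378 elements were called (edgeR's quasi-likelihood test, Benjamini-Hochberg). The share was 10.2% for isolated elements and 4.81% for overlapping ones, so the members' share lay between these and near the background. By gap, 17 of 239 (7.11%), 6 of 75 (8%) and 2 of 59 (3.39%) were called. By edgeR with TMM scaling no member was called below the centre, as for all elements (0%), and 2 members lay below it at an unadjusted p under 0.05, beside 35 above it. This count depended on the scaling: with library totals edgeR called 5 members below and 14 above, where 1.48% of all elements (50) were called below and 5% above. Without RNA replicate 1 it called 1 member below and 24 above, where 0.0888% of all elements (3) were called below and 8.56% above. limma-voom called 47 members above (12.6%, beside 15.1% of all elements) and 16 below (4.29% beside 4.03%). DESeq2's Wald test called 31 above (8.31% beside 12.4%) and 0 below, and gave no adjusted p for 191 members. Without RNA replicate 2 edgeR called 15 members (4.02% beside 5.71%), 0 of them in the widest class, and without RNA replicate 3 it called 17 (4.56% beside 6.45%), 1 of them in the widest class.

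Calls were more frequent among members with more barcodes. With 2 to 4 barcodes 3 of 123 members were called (2.44%, beside 3.38% of all elements with that many barcodes), with 5 to 9 barcodes 5 of 131 (3.82% beside 7.22%), and with 10 to 19 barcodes 6 of 74 (8.11% beside 12.5%). With 20 or more barcodes 11 of 45 were called (24.4% beside 22%). The members' share was lower than that of all elements in 3 of the 4 barcode classes and higher in the best covered one. These shares rest on 3 to 11 calls per class, and the differences were not tested. Members with 5 to 9 barcodes had a median log2 ratio of -0.42, where all elements with 5 to 9 barcodes had 0.0028. In the other barcode classes the members' median was the higher. It was -0.044 beside -0.082 with 2 to 4 barcodes, 0.12 beside -0.032 with 10 to 19, and 0.17 beside -0.020 with 20 or more. In the best covered members, those with 20 or more barcodes, the log2 ratios of the RNA libraries correlated at r = 0.90 to 0.91 across the 45 elements, and in members with 2 to 4 barcodes at 0.28 to 0.50 across 123. These correlations are across elements, which share the DNA library.

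The counts by neighbourhood are read against the 8.88% of all elements called. Where the nearest neighbour lay at the lower coordinate 18 of 189 members were called (9.52%), near that share, and where it lay at the higher coordinate 7 of 184 (3.80%), with median log2 ratios of 0.075 and -0.18. Strand was not used, so lower and higher coordinate do not say upstream or downstream. Where the nearest neighbour had no counts, 9 of 84 members were called (10.7%, also near it) with a median log2 ratio of -0.43, and where it had counts, 16 of 289 (5.54%) with a median of 0.039. The uncounted neighbours had a median of 3 paired barcodes (1 to 11), and the counted ones had a median of 16. Among the 38 members with 2 or more neighbours 1 was called (2.63%) and the median was -0.56, and among the 32 whose nearest neighbour overlapped a further element 0 were called by edgeR, with 0 above or below at an unadjusted p under 0.05, and the median was -0.61. None of these differences was tested.

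The 25 called members lay 2.19 to 24.9 times above the centre, with a median of 5.64 times. All 25 lay above it in 3 of 3 RNA libraries. At least 4-fold was reached by 17 of them, at least 8-fold by 6 and at least 16-fold by 2, where 65 and 10 of all called elements passed the last pair of limits. They had 2 to 56 barcodes (median 17). They made up 13.0% of the members' DNA counts and 48.9% ± 1.10 (SD, n = 3) of the members' RNA counts. Their strongest barcode held a median of 18.8% of an element's RNA counts (5.47 to 68.4%), against 41.2% over all members. The called members also had more barcodes, a median of 17 against 6 over all members. A call selects for high RNA, so the values of this paragraph describe the called members and are no support for the calls. Of their 512 barcodes 89.0% ± 1.00 (SD, n = 3) were detected in a given RNA library and 62.8% ± 2.15 had 5 counts or more, against 61.3% ± 2.78 and 16.8% ± 0.441 of barcodes of members not called. A further 6 members had ratios of at least 4-fold without a call, on 2 to 6 barcodes, and their strongest barcode held a median of 64.1% of the RNA counts.

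**Figure D3:**
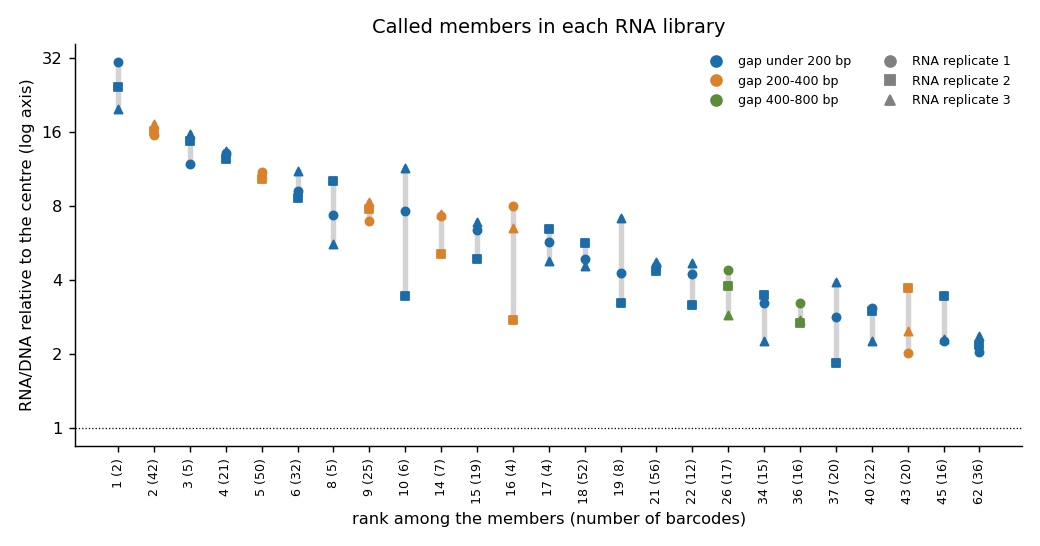
RNA/DNA ratio relative to the centre (log axis) of the 25 called members in each of the 3 RNA libraries, ordered by rank of the log2 ratio among the 373 members, with the number of barcodes in brackets. Symbols are libraries, colours are gap classes and grey bars span the range. All points lie above 1, and 12 members were called under every alternative that gave them a value.

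The best supported of the strongest members was chr2:217363473-217363670, which ranked 2 among the members and 9 among all elements. Its 42 barcodes held 1310 DNA counts and 2384, 2370 and 2713 RNA counts. The RNA/DNA ratio was 16.3 ± 0.837 (SD, n = 3), with a log2 ratio of 4.03 ± 0.21 (SE) and an adjusted p of 5.56e-28 by edgeR. The RNA libraries lay close together, and all 42 barcodes had 5 or more RNA counts in at least 1 library. Its neighbour lay 247 bp away. In the same gap class chr1:45241140-45241337, at 285 bp from an uncounted neighbour, had 50 barcodes, 1556 DNA counts and 1995, 1784 and 2015 RNA counts, a ratio of 10.7 ± 0.366 (SD, n = 3). At chr11:65186588-65186785, 299 bp from its neighbour, 25 barcodes with 656 DNA counts gave 534, 570 and 655 RNA counts, a ratio of 7.69 ± 0.676. These 3 were called under every alternative tried. At chr22:41865044-41865241 (gap 250 bp) 7 barcodes with 238 DNA counts gave 202, 136 and 212 RNA counts and a ratio of 6.60 ± 1.29, and at chr14:69865334-69865531 (gap 225 bp) 20 barcodes with 532 DNA counts gave 125, 220 and 158 and a ratio of 2.73 ± 0.875. The last had an adjusted p of 0.0311 by edgeR and lost its call under 4 of 10 alternatives, among them leaving out RNA replicate 2 or 3.

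Among gaps under 200 bp, chr5:54603734-54603931 (gap 136 bp) had 21 barcodes, 667 DNA counts and 1025, 923 and 1080 RNA counts. Its ratio was 13.0 ± 0.558 (SD, n = 3), its log2 ratio 3.70 ± 0.28 (SE) and its adjusted p 3.96e-19 by edgeR. All 3 libraries lay within a narrow range. At chr20:5093697-5093894, which starts 2 bp beyond the end of an uncounted neighbour, 32 barcodes with 837 DNA counts gave 901, 808 and 1117 RNA counts and a ratio of 9.66 ± 1.29. At chr17:41150364-41150561 (gap 96 bp) 5 barcodes with 112 DNA counts gave 155, 185 and 212 RNA counts and a ratio of 14.1 ± 2.04. These last values rest on few plasmids, although all 5 barcodes reached 5 RNA counts. At chr12:7079986-7080183 (gap 54 bp) 5 barcodes with 212 DNA counts gave 182, 240 and 143 RNA counts and a ratio of 7.70 ± 2.28, and at chr20:49575269-49575466 (gap 121 bp) 6 barcodes with 170 DNA counts gave 151, 65 and 234 and a ratio of 7.50 ± 4.02. The ratios of the last ran from 3.43 to 11.5 between libraries, and it lost its call without RNA replicate 3 and with RNA counts of 1 to 4 set to 0.

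The highest ratio of all 3378 elements also belonged to a member, chr2:219135145-219135342, at 197 bp from an uncounted neighbour. It falls outside the rule for elements described by position, which asked for at least 5 barcodes, and was picked out after its values were seen. It had 2 barcodes, 38 DNA counts and 137, 104 and 91 RNA counts, a ratio of 25.1 ± 5.50 (SD, n = 3). A single barcode held 68.4% of its RNA counts. It was called under all 9 alternatives that gave it an adjusted p.

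In the widest class the called members were chr6:30585537-30585734 (gap 418 bp, neighbour uncounted), with 17 barcodes, 530 DNA counts and 271, 224 and 183 RNA counts, and chr1:113162356-113162553 (gap 509 bp), with 16 barcodes, 577 DNA counts and 216, 172 and 191 RNA counts. Their ratios were 3.68 ± 0.758 and 2.88 ± 0.288 (SD, n = 3), below the strongest members of the nearer classes, which hold more members. The calls were kept under 7 and 6 of 10 alternatives, and both were lost without RNA replicate 2. The best covered members of this class lay near the centre or below it. At chr5:64920056-64920253 82 barcodes with 2436 DNA counts gave 330, 332 and 290 RNA counts and a ratio of 1.12 ± 0.119, and at chr6:35763480-35763677 37 barcodes with 1290 DNA counts gave 82, 89 and 67 and a ratio of 0.532 ± 0.0935. Neither was called.

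Of the 4 best covered members of the nearer classes, 2 in each, chr1:45241140-45241337 with its 50 barcodes was called at 10.7, as given above, and the other 3 were not called. At chr16:3115276-3115473 (gap 97 bp) 106 barcodes with 3301 DNA counts gave 648, 443 and 467 RNA counts and a ratio of 1.35 ± 0.284 (SD, n = 3), with an adjusted p of 0.542 by edgeR. At chr16:72127413-72127610 (gap 20 bp) 74 barcodes with 2398 DNA counts gave 610, 475 and 385 RNA counts and a ratio of 1.76 ± 0.421, with an adjusted p of 0.0517. At chr10:118351233-118351430 (gap 362 bp, 4 neighbours within 1000 bp) 67 barcodes with 2147 DNA counts gave 216, 148 and 115 RNA counts and a ratio of 0.642 ± 0.209. The first and second lay above the centre in 3 of 3 libraries and the third below it in 3 of 3.

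The lowest members with at least 10 barcodes had ratios of 0.191 to 0.292, and none passed the test. The element at chr4:39459949-39460146, whose barcodes are printed above, had a ratio of 0.191 ± 0.0086 (SD, n = 3) and a log2 ratio of -2.38 ± 1.46 (SE). At chr5:140027104-140027301 (gap 31 bp) 32 barcodes with 899 DNA counts gave 42, 18 and 23 RNA counts and a ratio of 0.264 ± 0.119, with an adjusted p of 0.133 by edgeR. At chr12:21654437-21654634 (gap 48 bp) 22 barcodes with 613 DNA counts gave 33, 8 and 22 RNA counts and a ratio of 0.292 ± 0.172. All 3 lay below the centre in 3 of 3 libraries, on RNA counts of 7 to 42.

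Counted neighbours were then set against each other. Each element was used in a single pair, nearest pairs first, which gave 145 non-overlapping pairs that held a member (both were members in 132), of which 92, 27 and 26 fell in the classes under 200, 200 to 400 and 400 to 800 bp. In 0 of these 145 pairs were both elements called, in 16 exactly 1 was called and in 129 neither. Among 218 overlapping pairs treated the same way, 4 had both elements called and 17 had exactly 1. The share called was 8.88% of all elements, 5.54% of members whose nearest neighbour had counts and 4.81% of overlapping elements. At such shares few pairs would have both elements called even if neighbours were unrelated, so the 0 says little about neighbours. The difference between the kinds of pair was not tested.

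In the 16 pairs with 1 called element, the neighbours spread to both sides of the centre. Their median log2 ratio was 0.46 (1.38-fold), from -1.41 to 1.60. The median was 0.039 over members whose nearest neighbour had counts and -0.085 over all members. They lay above the centre in 10 pairs, in 4 of them at least 2-fold, and below it in 6, in 2 of them at least 2-fold, and in none did the neighbour's own edgeR test give an unadjusted p under 0.05. The neighbours had 2 to 12 barcodes. The called element was at the higher coordinate in 11 pairs and at the lower in 5. In 13 of the 16 the lowest RNA library of the called element lay above the highest of its neighbour. The fitted difference had a median of 1.77 on the log2 scale (3.42-fold), from 0.40 to 5.23. These pairs were picked for a call on 1 side, so the direction of the difference is a description.

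**Figure D4:**
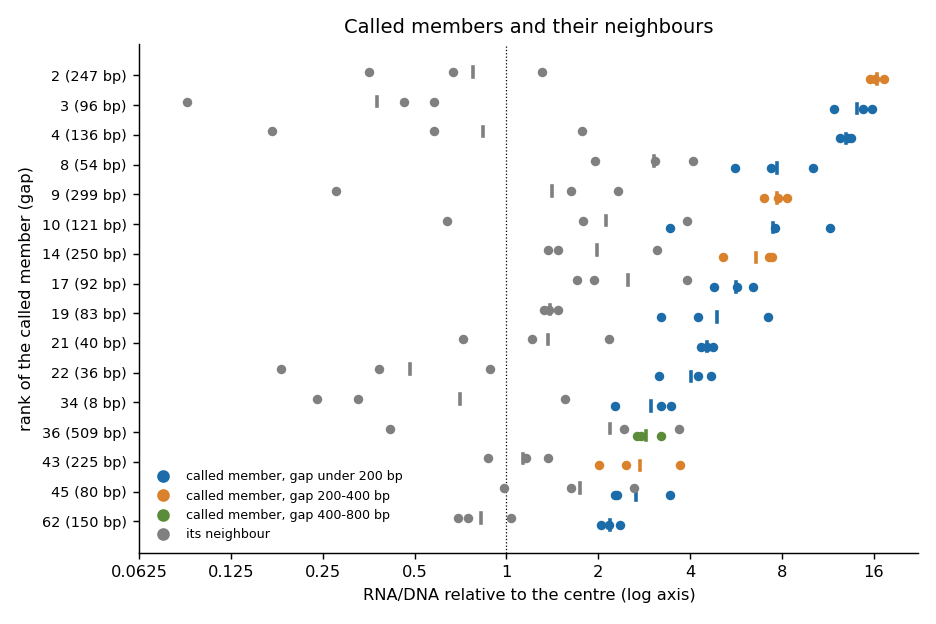
RNA/DNA ratio relative to the centre (log axis) in each of the 3 RNA libraries for the 16 called members whose neighbour was counted and not called, and for that neighbour (grey), with bars at the means. Pairs are labelled by the rank of the called member and the gap in bp. The libraries of the 2 elements do not overlap in 13 of 16 pairs.

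The pairs with the lowest unadjusted p for the difference are described next, an order that by itself picks pairs whose elements differ. Next to chr17:41150364-41150561, 96 bp away at chr17:41150658-41150855, 4 barcodes with 93 DNA counts gave 5, 6 and 1 RNA counts, against 155, 185 and 212 for the called element on 112 DNA counts. The log2 difference, higher minus lower coordinate, was -5.23 ± 1.22 (SE). Next to chr2:217363473-217363670, 247 bp away at chr2:217363918-217364115, 4 barcodes with 121 DNA counts gave 5, 9 and 19 RNA counts, and the log2 difference was -4.39 ± 1.04. Next to chr5:54603734-54603931, 136 bp away at chr5:54603400-54603597, 4 barcodes with 101 DNA counts gave 2, 20 and 7 RNA counts, and the log2 difference was 3.96 ± 1.18. In all 3 pairs the libraries did not overlap, and in all 3 the neighbour that was not called rested on 4 barcodes. Next to the well covered chr16:72127413-72127610, which was not called, the element 20 bp away at chr16:72127631-72127828 had 2 barcodes, 75 DNA counts and 2, 0 and 1 RNA counts, with a log2 difference of -3.89 ± 1.16. The pair on chromosome 4 printed above, with 10 and 14 barcodes, had ratios of 0.191 ± 0.0086 and 2.44 ± 0.267 (SD, n = 3) and a log2 difference of 3.67 ± 1.19 (SE). Neither element of that pair was called.

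No pair passed the test of the difference by edgeR (interaction of pair element and RNA against DNA, Benjamini-Hochberg over 388 pairs, overlapping ones included). The share of all pairs called was 0%, the lowest adjusted p was 0.130, and 8 of the 145 pairs, or 17 of all 388, had an unadjusted p under 0.05. limma-voom called 6 of the 145, where it called 3.87% of all pairs (15 of 388). These 6 were the pairs on chromosomes 2, 17, 5 and 4 described above, with adjusted p of 0.00925, 0.00989, 0.0099 and 0.0192 by limma-voom, the pair of chr11:65186588-65186785 with chr11:65186091-65186288 (adjusted p 0.0301), and the pair of chr5:140027104-140027301 with chr5:140027333-140027530 (adjusted p 0.0395). A fit of limma to the differences within each library, chosen after seeing the data, called 0 pairs with a lowest adjusted p of 0.0564. Without RNA replicate 1 edgeR called 1 of the 145, the pair on chromosome 2 (adjusted p 9.5e-04), where it called 0.515% of all pairs (2 of 388). Without each element's top barcode it called 3 of the 145, where it called 1.03% of all pairs (4 of 388). The difference within a pair does not depend on how the libraries were scaled, since both elements were read in the same libraries.

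Over all 145 pairs the neighbours differed by a median of 1.13 on the log2 scale, whichever was higher, and 31 (21.4%) differed by at least 4-fold. The overlapping pairs had a median of 0.99 and 49 of 218 (22.5%) at 4-fold. The element with the higher ratio was the same in 3 of 3 RNA libraries for 72 pairs (49.7%), against 84 overlapping pairs (38.5%). The elements lay on opposite sides of the centre in 72 pairs, both above it in 39 and both below it in 34. The median standard error of a difference was 1.63, larger than the median difference. It was derived from each difference and its test statistic, so it is no separate measure of precision.

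Ratios of neighbours showed no steady relation. Across the 145 pairs the log2 ratios had Pearson's r = 0.027 and Spearman's rho = 0.062, and within single RNA libraries r was 0.017 ± 0.043 (SD, n = 3). By gap class r was 0.050, -0.011 and -0.058 across 92, 27 and 26 pairs. Across the 218 overlapping pairs r was 0.26, and within single RNA libraries it was 0.18 ± 0.084 (SD, n = 3). For the same elements of the 145 pairs between RNA libraries r averaged 0.48. The value for the non-overlapping pairs moved with the depth asked for. It was 0.26 across 68 pairs where each element had at least 5 barcodes and 50 DNA counts. Across 18 pairs in which both elements had 10 barcodes or more it was -0.40. These are descriptions across pairs that share all 4 libraries and differ in depth.

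**Figure D5:**
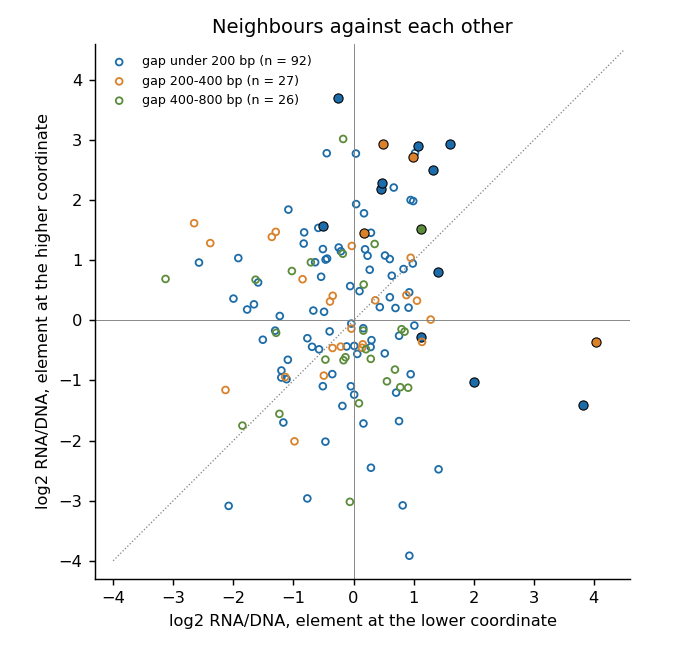
Log2 RNA/DNA ratio of the element at the higher coordinate against that at the lower coordinate for the 145 pairs, coloured by gap class, with the 16 pairs that hold a called element filled. The dotted line marks equal values. Pearson's r is 0.027, and in each of the filled pairs only 1 element was called.

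At the extremes of the gap the neighbours did not differ beyond their spread. The closest pair, chr3:179322318-179322515 and chr3:179322516-179322713, abuts with a gap of 0 bp. The first had 40 barcodes, 1303 DNA counts and 202, 211 and 240 RNA counts, a ratio of 1.44 ± 0.104 (SD, n = 3), and the second 5 barcodes, 165 DNA counts and 23, 55 and 43 RNA counts, a ratio of 2.12 ± 0.897. Their log2 difference was 0.56 ± 0.93 (SE). The most distant pair, chr9:86594444-86594641 and chr9:86595411-86595608 with a gap of 769 bp, had 2 and 6 barcodes, 48 and 122 DNA counts, and RNA counts of 1, 4 and 14 and of 25, 4 and 9. Its log2 difference was -0.33 ± 2.27 (SE), and the libraries of its elements overlapped.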

How the data were processed

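Barcode counts were deposited by the authors as raw counts per barcode, already filtered by a rule not given in the sources used here, with a second table that pairs barcodes with elements. Each counted barcode had at least 10 DNA counts and each element at least 2 barcodes, as tested on the table. The coordinates are hg19, per the submitters' processing notes, and are printed 1-based. Counts were summed per element and fitted with edgeR 4.0.16 (TMM, quasi-likelihood test, Benjamini-Hochberg at 0.05) over all 3378 elements, in R 4.3.3, and pairs of neighbours were fitted as an interaction over 388 pairs. The model gives the single DNA library the RNA libraries' dispersion. limma 3.58.1 (voom) and DESeq2 1.42.0 were alternatives. The procedure was also run on simulated data, drawn per element without differences between barcodes and with only counting error in the DNA. Its outcome is not given here and is no support for calls on few barcodes. The members and lists were chosen with earlier results of these data known. Elements were described by position if they were among the 5 highest called of their gap class (at least 5 barcodes), the 2 with the most barcodes, the 3 lowest with at least 10 barcodes, or in pairs that differed, were both called or had the smallest or largest gap. Since 0 pairs differed by edgeR, the pairs on chromosomes 17, 2, 5, 4, 16 and 11 were picked after their values were seen.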

Additional observations from a re-analysis of the deposited data

How the results depend on the processing

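Of the 25 called members, 12 were called under every alternative that gave them a value and 13 were lost under at least 1, and the direction of none of the 25 reversed. The median of all elements moved by -0.82 with RNA counts of 1 to 4 set to 0, by -0.29 under limma-voom and by -0.15 without the top barcodes. With library totals in place of TMM scaling, which moved that median by -0.73 on the log2 scale, 14 members were called (10 under 200 bp, 0 at 400 to 800 bp), their median was -0.81 and 77.2% of all calls lay above the centre, against 100% in the values reported. limma-voom called 47 (32, 11 and 4 by class, 79.0% of all calls above). RNA counts of 1 to 4 set to 0 gave 12 (3.22%, beside 3.40% of all elements), with 8 under 200 bp and 0 at 400 to 800 bp. The median was then -0.90, with the classes of 200 to 400 and 400 to 800 bp at -0.097 and -0.44 from all elements. DESeq2 size factors gave a median of -0.0071. With at least 5 barcodes and 50 DNA counts the widest class lay at -0.46 from all elements and neighbours correlated at 0.26. Without each element's top barcode the median was -0.28, the nearer classes lay at -0.0996 and 0.22, and edgeR called 3 of the 145 pairs (4 of all 388). Neighbours sought within 500 bp gave a median of -0.029, 0.0019 from all elements, and 0.093 for 200 to 400 bp. Neighbours taken from the count table gave 16 calls among 351 members (11 under 200 bp, 1 at 400 to 800 bp), beside 8.88% of all elements called. The nearer classes then lay at -0.12 and 0.17. The median over barcodes gave -0.94, with classes at 0.033 (under 200 bp) and -0.038 (400 to 800 bp). Leaving out 1 RNA library gave 15 to 24 calls (11 to 17, 4 to 5 and 0 to 2 by class), medians of -0.056 to -0.029, differences from all elements of -0.014 to 0.025 (-5.2e-04 to 0.031, 0.040 to 0.12 and -0.38 to -0.25 by class), r of -0.010 to 0.021 and 0 to 1 pairs called. limma-voom called 6 pairs, the library as a replicate block gave 0 with a lowest adjusted p of 0.431, and limma on differences within libraries, added after seeing the data, gave 0. Neighbours with at least 10 barcodes each correlated at -0.40. The cause was not tested for any of these. Depth limits the low side: 30 members had 0 counts in at least 1 RNA library.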
